A study of Mus musculus with 8 samples.

Results

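The genes described here are 8 transcription factors from families with members that direct the differentiation of T helper cells. They are the T-box genes Tbx21 and Eomes, the Gata genes Gata1 and Gata3, the Ror gene Rora, and Runx1, Runx2 and Runx3. They were chosen by name, with earlier results of these data known, and they are 8 of the 29924 gene names on the array. Their mRNA was followed in 4 CD4 T cell types sorted from pooled peripheral lymph nodes (pLN) of Foxp3-EGFP mice (strain B6.Cg-Foxp3<tm1Mal>) at d12 and d25 of an s.c. immunization with the antigen KLH in alum. All 4 types came from mice of that strain and immunization, 8 to 14 weeks old and of mixed sex. Each pool held cells of 8 to 15 mice. For each one-color Agilent array 25 ng of total RNA was amplified and labeled. The reporter marks Foxp3+ cells by EGFP, and all sorted cells were CD4+ and B220-. Naïve CD4 T cells were EGFP- and Treg cells EGFP+, both negative for PD1 and GL7, TFH cells were EGFP-, PD1hi and GL7+, and TFR cells were EGFP+ and PD1hi with or without GL7. The gate for naïve cells thus held no marker of earlier activation such as CD44. A single array was analysed here for each cell type and day, so the 2 days served as the replicates of a cell type (n = 2 arrays). A change between the days shared by the cell types was taken out by a day term. Any other change of a cell type between the days is part of the error.

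As background, a naïve helper T cell is steered towards a lineage by a small set of such factors. T-bet, the product of Tbx21, drives the TH1 program with IFNγ, and Eomes is its relative in CD8 T and NK cells. Gata3 drives the TH2 program and is also needed in Treg cells, whereas Gata1 is the master factor of erythroid and megakaryocytic cells. RORα, from Rora, belongs to the TH17 program and acts in ILC2. The Runx proteins bind DNA with the partner Cbfβ. Runx1 and Runx3 set the choice between CD4 and CD8 T cells and bind Foxp3 in Treg cells, and Runx2 is known for bone formation. TFH cells arise from naïve CD4 T cells and TFR cells mainly from Treg cells, so the comparisons asked how the expression of each regulator changed along both paths.

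Foxp3, the gene of the reporter, and the follicular markers followed the gates, whereas not every Treg marker did. Foxp3 measured 285 to 358 RU in naïve, 66 to 83 RU in TFH, 48622 to 49260 RU in Treg and 37266 to 37521 RU in TFR cells, where RU is the normalized intensity of the array. The 5 Treg markers, Foxp3 among them, summed to 1277 to 1390 RU in naïve, 17945 to 20229 RU in TFH, 126876 to 129655 RU in Treg and 110405 to 128117 RU in TFR cells. Of these, Ikzf2 measured 10507 and 10816 RU in TFH against 9918 and 11104 RU in Treg cells. Ctla4 measured 7083 and 8995 RU in TFH against 8109 and 10128 RU in Treg cells. Summed over 5 follicular markers, the level was 32097 to 33083 RU in naïve, 37043 to 41562 RU in Treg, 217074 to 269691 RU in TFR and 626598 to 800510 RU in TFH cells. The T cell genes Cd3e, Cd3d, Cd4 and Cd28 were well above background on all 8 arrays. In the summed level of 6 B cell markers the TFH arrays stood apart from each other, with 1603 RU at d12 and 12032 RU at d25. Slide 1 held the 4 arrays of d12, slide 2 naïve CD4 T and TFH cells of d25, and slide 3 Treg and TFR cells of d25. Within each day TFH and naïve CD4 T cells therefore shared a slide, as did TFR and Treg cells. The days were on different slides, so a shift between days and one between slides cannot be told apart. At d25 the Foxp3- cells were on slide 2 and the Foxp3+ cells on slide 3. Every difference between a Foxp3+ and a Foxp3- cell type thus crossed slides at d25, and there slide and Foxp3 status cannot be told apart.

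Each gene is given by its brightest probe. All 8 regulators passed the filter on dim genes (1 or more cell types with both arrays well above background). Differences are in log2 ± standard error (SE) from limma, and a difference was called at an adjusted p below 0.05 over the 15747 genes tested. Of the 8 regulators, 5 were called in TFH against naïve CD4 T cells, where 46.7% of all genes tested were called, and 5 between TFR and Treg cells against 39.8% of all genes. Treg and naïve CD4 T cells differed in 3 against 9.89% of all genes, and between TFR and TFH cells 5 against 22.2%. TFR and naïve CD4 T cells differed in 7 against 53.2%, and TFH and Treg cells in 2 against 39.9%. Runx2 is among those called in TFH against naïve, TFR against Treg, TFR against TFH and TFR against naïve cells, although it passed the filter only through TFR cells. With 8 genes, and up to 53.2% of all genes called, the values of the single genes are given more room than the counts. Whether a gene changed differently on the path from Treg to TFR cells than on the path from naïve to TFH cells was tested by the difference of both changes, and 1 regulator, Runx3, was called there against 8.52% of all genes. No regulator was called between d25 and d12, as were 0.0699% of all genes; none had an unadjusted p below 0.05 in that comparison.

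**Figure D1:**
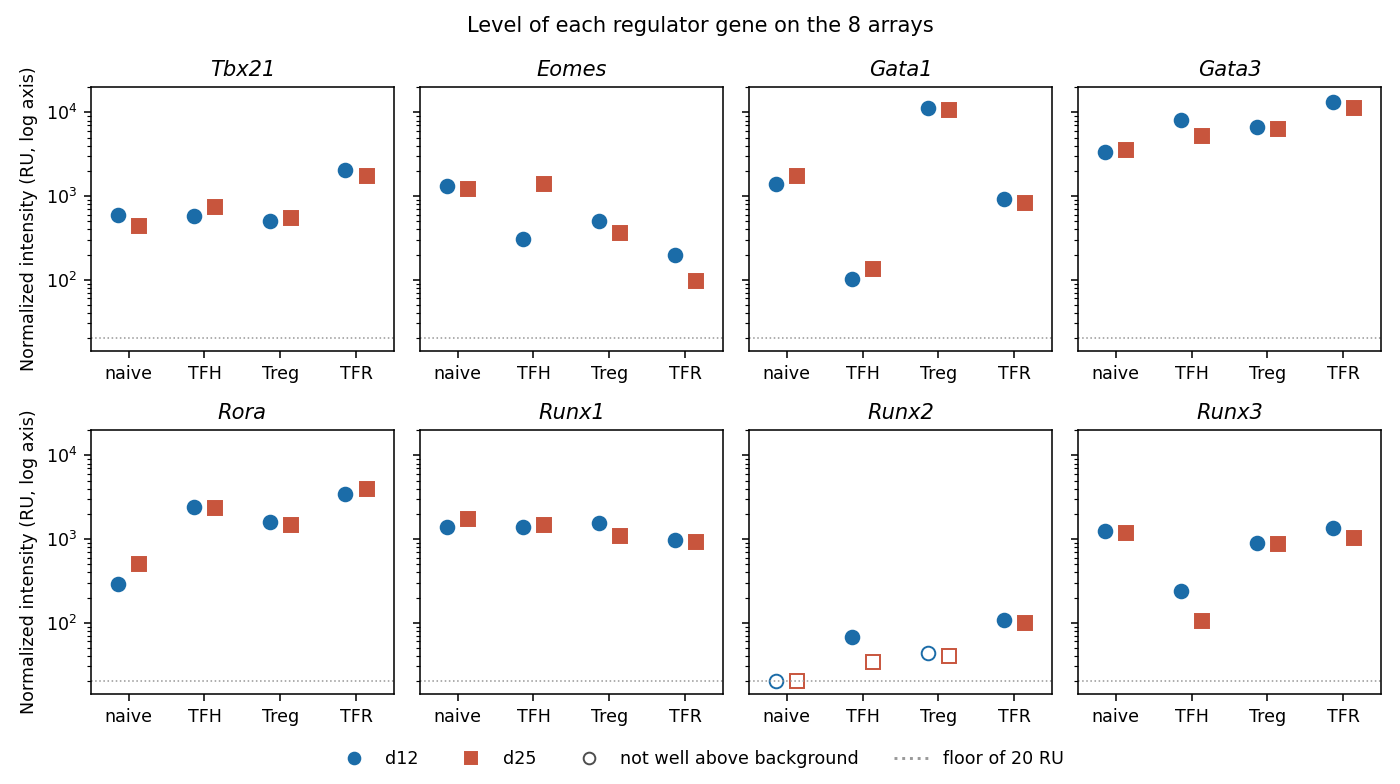
Normalized intensity (RU, log axis) of the brightest probe of each regulator on the 8 arrays, by cell type, with circles for d12 and squares for d25; open symbols are not well above background and the dotted line is the floor of 20 RU. Tbx21 was highest in TFR cells, Gata1 in Treg cells, and Runx3 was lowest in TFH cells at both days.

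Tbx21 was high in TFR cells alone among the 4 types. Its probe (chr11:96959417-96959476, minus strand, build NCBI37) measured 597, 574, 499 and 2042 RU in naïve, TFH, Treg and TFR cells at d12 and 440, 735, 554 and 1746 RU at d25. The values of TFR cells did not overlap with any other cell type, naïve CD4 T cells overlapped with TFH and with Treg cells, and both TFH arrays lay above both Treg arrays. Tbx21 was 3.59-fold higher in TFR than in Treg cells (log2 difference 1.84 ± 0.21, adjusted p = 0.00412), by 2.03 at d12 and 1.66 at d25. It was 3.68-fold higher than in naïve CD4 T cells (1.88 ± 0.21, adjusted p = 0.00237) and 2.91-fold higher than in TFH cells (1.54 ± 0.21, adjusted p = 0.0104). The difference to TFH cells fell below the threshold without the TFR array of d12 (adjusted p = 0.0933) or of d25 (adjusted p = 0.066), and with slide in place of day as a block (1.54, adjusted p = 0.0624). Between TFH and naïve CD4 T cells the difference was 0.34 with a 95% confidence interval from -0.21 to 0.89 (adjusted p = 0.245), with -0.06 at d12 and 0.74 at d25. The change towards TFR cells exceeded that towards TFH cells by 1.50 ± 0.30, just missing the threshold (adjusted p = 0.0508).

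Eomes ran the other way, with its lowest levels in TFR cells, and its level in TFH cells depended on the day. The probe (chr9:118394425-118394484, plus strand, NCBI37) gave 1318 RU at d12 and 1212 RU at d25 in naïve, 303 and 1404 RU in TFH, 497 and 363 RU in Treg, and 195 and 97 RU in TFR cells. TFR cells were below all other arrays, whereas the TFH array of d12 lay below both Treg arrays and that of d25 above both naïve ones. The only called difference was a 9.18-fold lower level in TFR than in naïve CD4 T cells (-3.20 ± 0.79, adjusted p = 0.0237). That call was lost without the naïve array of d12 (-3.01, adjusted p = 0.115) or d25 (-3.38, adjusted p = 0.0863), without the TFR array of d12 (-3.97, adjusted p = 0.0558) or d25 (-2.42, adjusted p = 0.141), and with slide as a block (-2.31, adjusted p = 0.0852). Between d12 and d25 Eomes differed by 2.21 in log2 in TFH cells, against -0.12 in naïve, -0.45 in Treg and -1.01 in TFR cells. The 6 Eomes differences between cell types share an SE of 0.79, the widest of the 8 regulators. Without the TFH array of d12 the TFH to naïve difference changed from -0.95 to 0.41, and without that of d25 it was -2.32 (adjusted p = 0.0122). Leaving out either TFH array also brought the difference between TFR and Treg cells (-1.62) to an adjusted p of 0.0148, from 0.161.

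A further probe for Eomes (chr9:118395189-118395248) measured 176 and 125 RU in naïve, 74 and 190 RU in TFH, 58 and 63 RU in Treg and 20 RU, the floor, on both arrays of TFR cells. It was thus again lowest in TFR cells and again higher in TFH cells at d25. When each probe was fitted on its own, this one differed between TFR and TFH cells (adjusted p = 0.0197), TFR and naïve CD4 T cells (adjusted p = 0.00589) and TFR and Treg cells (adjusted p = 0.0441), with no fold given here because TFR cells were at the floor.

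Markers of cytotoxic lymphocytes also differed between the cell types, some in the order of Eomes and some not. The CD8 genes Cd8a and Cd8b1 summed to 4954 to 5117 RU in naïve, 2113 to 3173 RU in TFH, 4208 to 4572 RU in Treg and 2110 to 2235 RU in TFR cells, and Cd8a in TFH cells measured 591 RU at d12 and 1251 RU at d25. Of 5 markers of NK cells and ILC1, the defining Ncr1 was at background throughout, and the summed level was 6024 to 6193 RU in naïve, 2228 to 4344 RU in TFH, 1015 to 1088 RU in Treg and 1245 to 1246 RU in TFR cells. Among them Klrd1 was highest in naïve CD4 T cells (5459 and 5835 RU) and lowest in TFR cells (347 and 406 RU), whereas Klrb1c (NK1.1) measured 162 and 96 RU in naïve, 1483 and 3077 RU in TFH, 77 and 35 RU in Treg and 820 and 752 RU in TFR cells. The B cell markers above were also higher on the TFH array of d25. The part of such cells in the Eomes and Tbx21 values was not tested, and in sorted pools fewer cells of a type and less RNA per cell cannot be told apart. Over the 8 arrays the profile most like that of Tbx21, by the root mean square (RMS) difference of log2 values centered on each gene's mean, was that of Clhc1 (0.18), followed by Tpmt (0.18) and 9130008F23Rik (0.20). Clhc1 and 9130008F23Rik were well above background on only 2 arrays each. Outside TFR cells they lay at 20 to 25 RU, at or near the floor, so their likeness rests on TFR cells alone. For Eomes the nearest were 2610020P09Rik (0.52), Klra7 (0.52) and A630026N12Rik (0.53). Klra7, well above background on 4 arrays, encodes an NK cell receptor.

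Genes of the TH1 program were set beside the T-box genes. Of 22 listed, 20 were tested (Hlx and Il12rb2 were too dim). Between TFR and Treg cells 9 were higher and 4 lower, where 18.8% of all genes were higher and 21.0% lower, and the median of the list was 0.51 against -0.08 for all genes. Xcl1, a lymphocyte chemokine, was higher in TFR cells by 4.47 ± 0.53 (adjusted p = 0.00431), Ifng by 4.05 ± 0.43 (adjusted p = 0.00337) and the cytotoxic granule gene Nkg7 by 2.75 ± 0.31 (adjusted p = 0.00371). Ifng measured 2451 RU at d12 and 3489 RU at d25 in TFR cells against 130 and 239 RU in Treg cells, and in TFH cells it was 1049 and 1804 RU. The checkpoint receptor Havcr2 (TIM-3) was at 582 and 342 RU in TFR against 73 and 54 RU in Treg cells. On 1 of the 2 Treg arrays it was not well above background. Havcr2 and Il18rap passed the filter on dim genes only through TFR cells. They are counted among the 9, and their calls support nothing.

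Between TFR and TFH cells 11 of the 20 TH1 genes were higher and 1 was lower, against 11.7% and 10.5% of all genes. The IL18 receptor chain Il18r1 was higher in TFR cells by 4.43 ± 0.16 (adjusted p = 0.000508), Gzmb was at least 40.1-fold higher (adjusted p = 0.00277), Havcr2 at least 13.0-fold and Il18rap at least 6.13-fold. These folds are lower bounds because at least 1 TFH array was not well above background, and there the array's lowest signal well above background stood in. Havcr2 and Il18rap, counted among the 11, passed the filter only through TFR cells, and their calls support nothing. Gzmb measured 4662 RU at d12 and 1685 RU at d25 in Treg cells, compared with 5557 and 1726 RU for TFR cells. Against naïve CD4 T cells 11 were higher and 4 lower, where 23.4% and 29.8% of all genes were, with a list median of 1.86 against -0.10. Ifng was higher there by 4.56 ± 0.43 (adjusted p = 0.00141) and Xcl1 by 3.80 ± 0.53 (adjusted p = 0.00427).

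**Figure D2:**
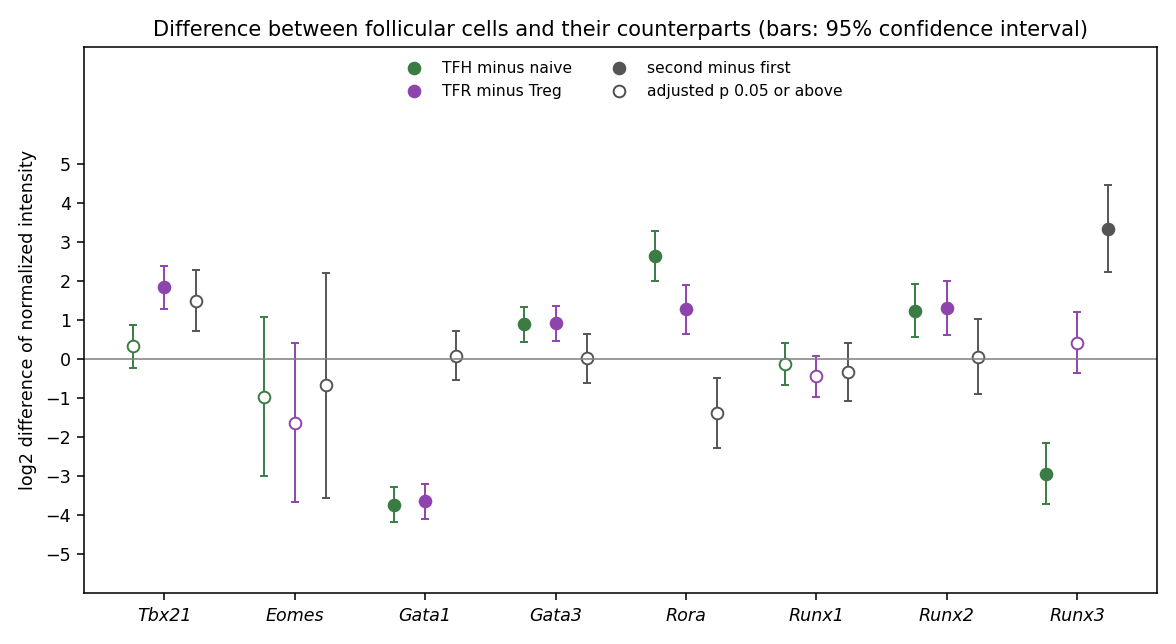
Fitted log2 difference of each regulator between TFH and naïve CD4 T cells (green), between TFR and Treg cells (violet), and the latter minus the former (gray), with 95% confidence intervals; filled symbols passed an adjusted p below 0.05. The gray symbol of Runx3 stands at 3.35 and that of Tbx21 at 1.50, and for Runx2 the compared cells included arrays at background.

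Gata3 rose in steps over the 4 types. Its probe (chr2:9779551-9779610, minus strand, NCBI37) measured 3409, 8018, 6762 and 13499 RU in naïve, TFH, Treg and TFR cells at d12 and 3565, 5294, 6268 and 11295 RU at d25. Naïve CD4 T cells were lowest and TFR cells highest on every array, and the ranges of TFH and Treg cells overlapped. Gata3 was 1.87-fold higher in TFH than in naïve cells (0.90 ± 0.17, adjusted p = 0.0128) and 1.90-fold higher in TFR than in Treg cells (0.92 ± 0.17, adjusted p = 0.0148). These changes differed by 0.02 ± 0.25, with a 95% confidence interval from -0.61 to 0.66. Treg cells exceeded naïve CD4 T cells by 0.90 ± 0.17 (adjusted p = 0.0419) and TFR exceeded TFH cells by 0.92 ± 0.17 (adjusted p = 0.0239). The difference between TFR and naïve CD4 T cells was 3.54-fold (1.82 ± 0.17, adjusted p = 0.00143) and that between TFH and Treg cells was 0.00 (95% confidence interval from -0.45 to 0.45).

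Most of the Gata3 calls were lost when a single array was left out, though none of these differences changed sign. The fit then had fewer residual degrees of freedom. Without a Treg array, for example, the difference between TFR and TFH cells stayed at 0.92. The difference between TFR and naïve CD4 T cells was the one called under every alternative tried. The TFH to naïve call was lost without the naïve array of d12 (0.71, adjusted p = 0.0721). The TFR to Treg call was lost without any 1 of its 4 arrays, namely Treg at d12 (0.85, adjusted p = 0.0952) or d25 (1.00, adjusted p = 0.0688) and TFR at d12 (0.90, adjusted p = 0.096) or d25 (0.94, adjusted p = 0.0875). For Treg against naïve CD4 T cells the call was lost without any array of naïve, Treg or TFR cells, at adjusted p values from 0.0834 to 0.23, with slide as a block (0.86, adjusted p = 0.187), without the day term (adjusted p = 0.072) and with 75th percentile scaling alone (0.86, adjusted p = 0.0524). For TFR against TFH cells it was lost without either TFR array (adjusted p = 0.15 for d12 and 0.13 for d25), either Treg array (adjusted p = 0.0549 for both) or the TFH array of d25 (0.67, adjusted p = 0.0624), and with slide as a block (0.88, adjusted p = 0.118). The profile nearest to Gata3 was that of Cdca7 (RMS difference 0.14), a gene of the cell cycle program, then Pakap (0.16) and Gm5858 (0.16). Proliferation markers were likewise lowest in naïve CD4 T and highest in TFR cells. The 5 of them summed to 1568 to 2160 RU in naïve, 4414 to 5001 RU in Treg, 10515 to 15982 RU in TFH and 25761 to 39574 RU in TFR cells, and their part in the Gata3 differences was not tested.

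Of 19 TH2 genes listed, 18 were on the array by that name and 13 were tested; Il5, Il9, Ptgdr2, Bhlhe41 and Il24 were too dim. Of the 13, 8 were higher and 3 lower in TFH against naïve CD4 T cells, where 21.0% of all genes were higher and 25.7% lower. Il4 was higher by 6.86 ± 0.41 (adjusted p = 0.000441), the transcription factor Maf by 5.14 ± 0.25 (adjusted p = 0.000268) and Nfil3 by 4.28 ± 0.27 (adjusted p = 0.0005), while the receptor Il4ra was lower (-4.45 ± 0.29, adjusted p = 0.000563). Il4 measured 68135 and 74917 RU in TFH and 12569 and 12557 RU in TFR cells, against 450 to 843 RU in naïve and 210 to 548 RU in Treg cells. Whether TFH cells left in the TFR sort had a part in the latter's Il4 was not tested. In TFR against Treg cells 7 were higher and 3 lower, against 18.8% and 21.0% of all genes, with Il4 up by 5.21 ± 0.41 (adjusted p = 0.0017), the chemokine receptor Ccr8 by 2.59 ± 0.12 (adjusted p = 0.000548) and Il13 at least 7.49-fold higher (adjusted p = 0.00231), and Nfil3 was also higher (adjusted p = 0.00211).

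In Treg against naïve CD4 T cells 8 of the 13 TH2 genes were higher and 0 lower, where 5.91% of all genes were higher and 3.99% lower; in limma, 0 were lower at an unadjusted p below 0.05 too. They included Il2ra, the IL2 receptor that marks Treg cells, by 6.92 ± 0.12 (adjusted p = 0.000295), the IL33 receptor Il1rl1 at least 34.3-fold (adjusted p = 0.00136), Maf by 2.04 ± 0.25 (adjusted p = 0.0127) and Ccr4 by 1.77 ± 0.11 (adjusted p = 0.00209). TFR exceeded TFH cells in Il1rl1 (at least 73.1-fold, adjusted p = 0.000568), Il2ra (6.17 ± 0.12, adjusted p = 0.000428) and Ccr8 (3.39 ± 0.12, adjusted p = 0.000508) but had less Il4 (-2.51 ± 0.41, adjusted p = 0.0164), with 6 higher and 3 lower in all, against 11.7% and 10.5% of all genes. TFR cells against naïve CD4 T cells had 11 of 13 higher and 1 lower, against 23.4% and 29.8% of all genes, with a list median of 3.82 against -0.10. Markers of ILC2, some of which Treg cells also express, summed to 181 to 249 RU in naïve, 531 to 571 RU in TFH, 4417 to 4683 RU in Treg and 10937 to 14802 RU in TFR cells. Of these 5 markers Il5 was at background throughout, and their part in the Gata3 differences was not tested.

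Gata1 was the most divergent of the 8 and was highest in Treg cells. Its only probe (chrX:7536392-7536451, minus strand, NCBI37) measured 1388, 101, 11160 and 928 RU in naïve, TFH, Treg and TFR cells at d12 and 1727, 134, 10740 and 830 RU at d25. The 4 cell types did not overlap, in the order Treg, naïve, TFR and TFH cells. Gata1 was 13.3-fold lower in TFH than in naïve cells (-3.73 ± 0.17, adjusted p = 0.000246), with -3.78 at d12 and -3.68 at d25. In TFR it was 12.5-fold lower than in Treg cells (-3.64 ± 0.17, adjusted p = 0.000561), with -3.59 and -3.69. The falls differed by 0.09 with a 95% confidence interval from -0.54 to 0.73 (adjusted p = 0.856). With normexp background correction this difference changed sign, to -0.77 (adjusted p = 0.0413). Treg cells exceeded naïve CD4 T cells 7.07-fold (2.82 ± 0.17, adjusted p = 0.00209) and TFH cells 94.1-fold (TFH minus Treg -6.56 ± 0.17, adjusted p = 0.000149), and TFR exceeded TFH cells 7.54-fold (2.91 ± 0.17, adjusted p = 0.00122). The smallest step, TFR below naïve CD4 T cells by 1.77-fold (-0.82 ± 0.17, adjusted p = 0.015), was lost without the naïve array of d25 (-0.70, adjusted p = 0.0869) or the TFR array of d25 (-0.63, adjusted p = 0.0912).

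Markers of the cells in which Gata1 is known to act were mostly at background. Among erythroid and megakaryocyte markers, Klf1, Pf4 and Itga2b were not well above background on any array. The hemoglobin gene Hba-a1 measured 13474, 9223, 13604 and 9750 RU at d12 and 14750, 5291, 7512 and 6668 RU at d25 in naïve, TFH, Treg and TFR cells. Of 8 markers of mast cells, basophils and eosinophils, 6 were never well above background, and 2, Cpa3 and Mcpt4, were so on 1 array, that of Treg cells at d25, with 93 and 109 RU. The part of such cells in the Gata1 values was not tested. Treg cells differed from naïve CD4 T cells in Foxp3 by 7.26 ± 0.17 (adjusted p = 0.000562), compared with 2.82 for Gata1. Nearest in profile to Gata1 were Gpr34 (RMS difference 0.52), which measured 1642 and 2070 RU in Treg cells and 20 RU in TFH cells, Ppm1l (0.65) and Prg4 (0.73).

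The genes next to Gata1 on the X chromosome did not show its profile. They were looked at after the values of Gata1 had been seen, and their order was taken from RefSeq (GRCm38.p6). Of the 5 genes on each side, Eras and Glod5 were at the floor on all arrays. For the other 8 the highest array exceeded the lowest at most 2.54-fold, against 110.0-fold for Gata1. Hdac6, directly adjacent, measured 1209, 1560, 2024 and 2675 RU at d12 and 1111, 1228, 1841 and 2295 RU at d25 in naïve, TFH, Treg and TFR cells. It was thus highest in TFR and not in Treg cells.

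**Figure D3:**
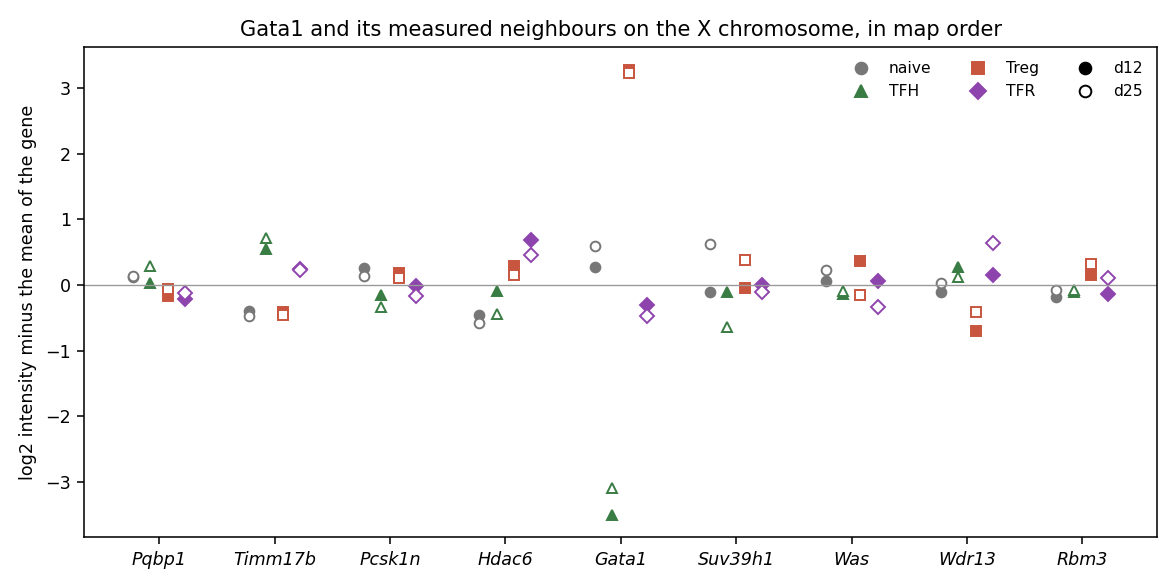
Log2 intensity of Gata1 and its 8 measured neighbours on the X chromosome in map order, each minus its own mean over the 8 arrays, with filled symbols for d12 and open symbols for d25. Gata1 spans 110.0-fold from the lowest TFH to the highest Treg array, and no neighbour more than 2.54-fold.

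Cofactors of these proteins were also listed, and 17 of 21 were tested. In TFH against naïve CD4 T cells 6 were higher and 2 lower, against 21.0% and 25.7% of all genes. Zfpm1, the Gata partner FOG-1, rose by 1.52 ± 0.09 (adjusted p = 0.000466) in TFH against naïve and by 1.04 ± 0.09 (adjusted p = 0.0023) in TFR against Treg cells. Cbfa2t3, a corepressor in complexes of Gata1 in blood cells, was at 1085 and 958 RU in TFH cells and not well above background on the 6 other arrays. It was at least 17.5-fold higher in TFH than in naïve cells. Cbfa2t3 passed the filter only through TFH cells, so its calls, counted here, support nothing. Lyl1 rose in TFH cells by 2.66 ± 0.36 (adjusted p = 0.0046), Lmo4 rose as well (adjusted p = 0.00165), and the corepressor Tle1 fell (-2.32 ± 0.26, adjusted p = 0.00247). Between TFR and Treg cells 2 were higher and 3 lower, against 18.8% and 21.0% of all genes. Cbfa2t3 is among the 2, although it was not well above background in either cell type. Of 25 other genes of the T-box, Gata, Ror and Runx families and their kin, 10 were tested, of which 2 were higher and 1 lower on the path to TFH cells, where 21.0% and 25.7% of all genes were. The GATA-type repressor Trps1 rose on both paths, by 1.70 ± 0.15 (adjusted p = 0.00115) and 1.50 ± 0.15 (adjusted p = 0.0027), and Tbx22 was lower in TFH than naïve cells (-1.94 ± 0.29, adjusted p = 0.00581). Gata2, Gata4 and Gata6 were not well above background on any array. Gata5 was well above background on all 8, at 3121 to 4440 RU, and was called in no comparison.

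Rora was low in naïve CD4 T cells and high in the other types. Its probe (chr9:69226774-69226833, plus strand, NCBI37) measured 287, 2434, 1586 and 3424 RU in naïve, TFH, Treg and TFR cells at d12 and 500, 2323, 1472 and 4011 RU at d25. The 4 types did not overlap, in the order TFR, TFH, Treg and naïve cells. Rora was 6.28-fold higher in TFH than in naïve cells (2.65 ± 0.24, adjusted p = 0.0014) and 9.79-fold higher in TFR than in naïve CD4 T cells (3.29 ± 0.24, adjusted p = 0.00073). Treg cells exceeded naïve CD4 T cells 4.04-fold (2.01 ± 0.24, adjusted p = 0.0124), and TFR exceeded Treg cells 2.43-fold (1.28 ± 0.24, adjusted p = 0.0155). The neighbours in the order TFR, TFH and Treg were not called apart, at 0.64 (adjusted p = 0.13) for TFR against TFH and 0.64 (adjusted p = 0.0968) for TFH against Treg cells. The change towards TFR cells was smaller than that towards TFH cells (-1.37 ± 0.35), which did not pass the threshold (adjusted p = 0.0848). The TFR to Treg call was lost without the Treg array of d12 (1.49, adjusted p = 0.0525) or d25 (1.06, adjusted p = 0.093) and the TFR array of d12 (1.29, adjusted p = 0.0942) or d25 (1.27, adjusted p = 0.0959). The Treg to naïve call was lost without any array of Treg or TFR cells, at adjusted p values from 0.05 to 0.0935, and with slide as a block (2.17, adjusted p = 0.0605). A further probe, designed to transcript variant 3 of Rora, was at the floor of 20 RU on all 8 arrays. Nearest in profile were Cpd (RMS difference 0.20), Ybx3 (0.23) and Plcl1 (0.24).

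Among TH17 genes 16 of 19 were tested, and the cytokines Il17a and Il17f and the chemokine Ccl20 were not well above background on any array. In TFH against naïve CD4 T cells 8 of the 16 were higher and 0 lower (in limma also 0 at an unadjusted p below 0.05), where 21.0% and 25.7% of all genes were, with a list median of 0.87 against -0.07 for all genes. The IL1 receptor Il1r1 was at least 88.9-fold higher (adjusted p = 0.000369), Il21 was higher by 6.85 ± 0.27 (adjusted p = 0.000182) and the AP-1 factor Batf by 2.12 ± 0.11 (adjusted p = 0.000296). Il21, in this and the later counts of the list, is also among the follicular markers summed above. TFR against Treg cells had 7 higher and 2 lower, against 18.8% and 21.0% of all genes. Il21 was at least 36.3-fold higher (adjusted p = 0.000469), Il1r1 at least 6.08-fold (adjusted p = 0.00355) and the IL23 receptor Il23r at least 2.29-fold. Il21 measured 1555 and 2386 RU in TFR against 23726 and 26350 RU in TFH cells, and Il1r1 639 and 163 RU against 6353 and 4242 RU. Whether TFH cells left in the TFR sort had a part in the Il21 and Il1r1 values was not tested. Il23r, counted among the 7, passed the filter only through TFR cells, and its call supports nothing. In Treg against naïve CD4 T cells, where 5.91% of all genes were higher and 3.99% lower, 2 were higher, Ahr by 3.20 ± 0.29 (adjusted p = 0.00518) and the chemokine receptor Ccr6 by 2.85 ± 0.38 (adjusted p = 0.0154), and Il21 was lower, at least 4.08-fold (adjusted p = 0.00346). TFR against naïve CD4 T cells had 7 higher and 2 lower, against 23.4% and 29.8% of all genes, led by Ccr6 (5.44 ± 0.38, adjusted p = 0.000601) and Ahr (4.91 ± 0.29, adjusted p = 0.000374).

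**Figure D4:**
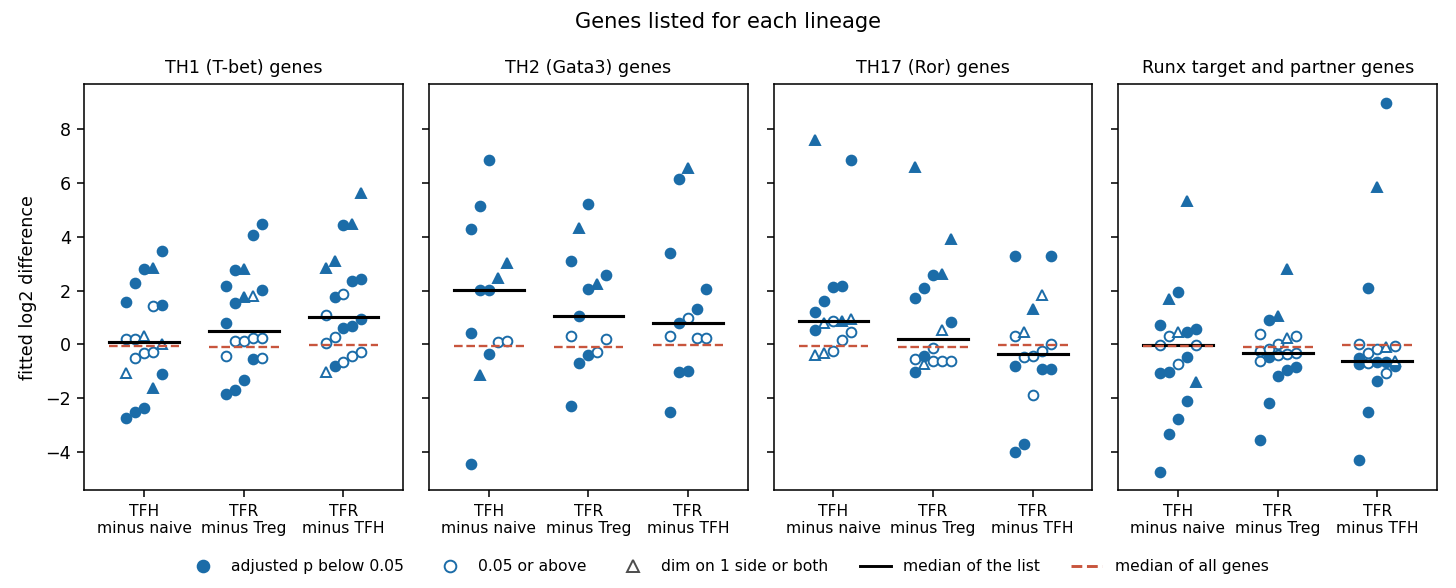
Fitted log2 difference of each tested gene of 4 lists in 3 comparisons; filled symbols passed an adjusted p below 0.05, triangles are genes not well above background on every array compared, the black line is the median of the list and the dashed line that of all genes. The TH2 list has its median at 2.02 in TFH against naïve CD4 T cells, and the TH1 list at 0.51 in TFR against Treg cells.

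Runx3 was low in TFH cells alone. Its probe (chr4:134733846-134733905, plus strand, NCBI37) measured 1248, 240, 887 and 1359 RU in naïve, TFH, Treg and TFR cells at d12 and 1168, 105, 865 and 1017 RU at d25. The TFH arrays lay below all others, Treg arrays came below the naïve ones, and TFR cells overlapped with the latter. Runx3 was 7.62-fold lower in TFH than in naïve cells (-2.93 ± 0.30, adjusted p = 0.00196), by -2.38 at d12 and -3.48 at d25. It was 5.52-fold lower than in Treg cells (-2.47 ± 0.30, adjusted p = 0.00402) and 7.41-fold lower than in TFR cells (TFR minus TFH 2.89 ± 0.30, adjusted p = 0.00501). Without the TFR array of d12 or d25 the latter reached an adjusted p of 0.0555 (2.90) or 0.0526 (2.88). Between TFR and Treg cells Runx3 differed by 0.42 (95% confidence interval from -0.36 to 1.21, adjusted p = 0.314). The change towards TFR cells exceeded that towards TFH cells by 3.35 ± 0.43 (adjusted p = 0.0172). The adjusted p rose to between 0.0593 and 0.101 without any 1 of the naïve, Treg or TFR arrays, with differences from 3.09 to 3.62.

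The other probe for Runx3 (chr4:134731959-134732018) measured 363, 72, 252 and 219 RU in naïve, TFH, Treg and TFR cells at d12 and 289, 72, 202 and 137 RU at d25. It was also lowest in TFH cells, and fitted by probe it was lower than in naïve CD4 T cells (-2.17 ± 0.17, adjusted p = 0.001), with TFR cells above TFH cells by 1.27 ± 0.17 (adjusted p = 0.0106) and the changes differing by 1.78 ± 0.25 (adjusted p = 0.0225). The probes parted over TFR cells, which this probe put below naïve CD4 T cells (-0.90 ± 0.17, adjusted p = 0.0116) and the brightest probe did not (-0.04 ± 0.30, adjusted p = 0.925). Nearest in profile to the brightest probe were Inf2 (RMS difference 0.39), Arap3 (0.40) and Emp3 (0.42).

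**Figure D5:**
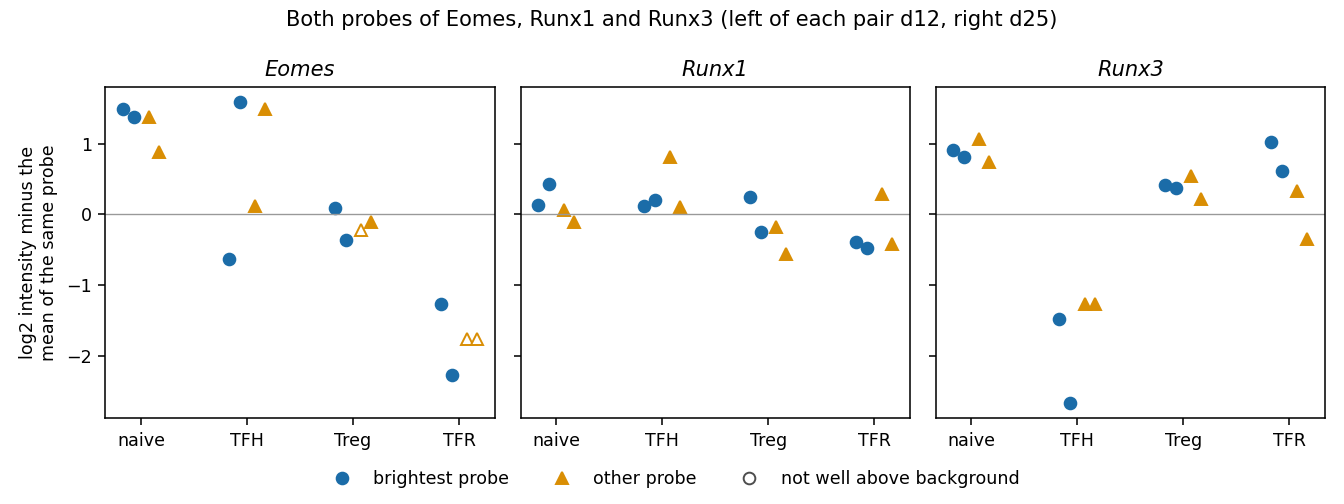
Log2 intensity of both probes of Eomes, Runx1 and Runx3, each minus its own mean over the 8 arrays, by cell type, with d12 to the left and d25 to the right within a pair; open symbols are not well above background. Both Runx3 probes are lowest in TFH cells, and both Eomes probes are lowest in TFR cells.

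Runx1 varied little. Its brightest probe (chr16:92604413-92604472, minus strand, NCBI37) measured 1413, 1402, 1540 and 985 RU in naïve, TFH, Treg and TFR cells at d12 and 1749, 1491, 1090 and 927 RU at d25. TFR cells lay below the other types on both arrays, and the remaining types overlapped. TFR cells were 1.64-fold below naïve CD4 T cells (-0.72 ± 0.20, adjusted p = 0.0359). The call was lost without the naïve array of d25 (-0.48, adjusted p = 0.173), either TFR array (adjusted p = 0.142 for d12 and 0.161 for d25) or either TFH array (adjusted p = 0.0578), and with slide as a block (-0.47, adjusted p = 0.116). The other probe (chr16:92605785-92605844), designed to transcript variant 3, did not show it (-0.05 ± 0.17, adjusted p = 0.841) and instead had TFH above Treg cells (0.83 ± 0.17, adjusted p = 0.0175). It measured 864, 1455, 727 and 1007 RU at d12 and 767, 888, 561 and 619 RU at d25. The common partner Cbfb was at 37436 to 59513 RU over the arrays. Like Runx1 it was called in TFR against naïve CD4 T cells alone, where it was lower (-0.33 ± 0.10, adjusted p = 0.041).

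Runx2 rests on a probe for a non-coding transcript. The brightest of its 3 probes is annotated in the array's design to the non-coding transcript variant 8, and it measured 20, 67, 44 and 107 RU in naïve, TFH, Treg and TFR cells at d12 and 20, 34, 40 and 100 RU at d25. It was well above background only on both TFR arrays and the TFH array of d12, so it was tested only because TFR cells were high. TFR cells exceeded Treg cells at least 1.95-fold, naïve CD4 T cells at least 1.77-fold and TFH cells at least 2.17-fold, 1 of the 2 TFH arrays being well above background. These folds are a description, and since the filter let Runx2 through by its level in TFR cells its calls support nothing. The call of TFR against TFH cells was lost under 13 of 19 alternatives. Both probes for the coding mRNA, designed to transcript variant 3, were at 20 RU on all 8 arrays. Nearest in profile to the brightest probe were Xylb, AI426330 and Lgals1, each at an RMS difference of 0.17. Xylb was well above background on only 3 arrays.

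The probe letters, from the array files, show what each Runx2 value stands for. The non-coding probe (chr17:44633034-44633093), the probe in the 3′ part of the coding mRNA (chr17:44744925-44744984) and the part of the 5′ probe from its ATG (chr17:44951128-44951175) are given 5′ to 3′ on the minus strand of NCBI37, with that ATG in capitals.
Runx2, non-coding variant: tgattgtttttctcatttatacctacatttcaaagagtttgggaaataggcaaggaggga
Runx2, coding mRNA: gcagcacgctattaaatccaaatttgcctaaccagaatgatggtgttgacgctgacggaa
Runx2, start of coding mRNA: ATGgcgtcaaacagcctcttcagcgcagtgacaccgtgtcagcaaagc
The latter 2 sequences gave no signal above the floor in any of the 4 cell types.

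Of 22 Runx target and partner genes listed, 19 were tested. In TFH against naïve CD4 T cells, where Runx3 was lower, 6 were higher and 8 lower, against 21.0% and 25.7% of all genes, with a list median of -0.04 against -0.07 for all genes. The IL7 receptor Il7r was lower (-4.73 ± 0.29, adjusted p = 0.000485), as were the chromatin organizer Satb1 (-3.34 ± 0.44, adjusted p = 0.00405) and the transcription factor Lef1 (-2.76 ± 0.11, adjusted p = 0.000182), while osteopontin (Spp1) was at least 13.9-fold higher (adjusted p = 0.00111). TFH against Treg cells had 8 higher and 7 lower, where 18.8% and 21.1% of all genes were, with Il2 higher by 3.95 ± 0.20 (adjusted p = 0.000366) and the integrin Itgae (CD103) at least 33.5-fold lower (adjusted p = 0.000339). In TFR against TFH cells 3 were higher and 8 lower, against 11.7% and 10.5% of all genes, with Itgae at least 41.9-fold higher (adjusted p = 0.000665) and Il2 lower (-4.31 ± 0.20, adjusted p = 0.000701). Foxp3 is on this list and was part of the sort. In the comparison of both changes, where 4.05% of all genes were higher and 4.47% lower, 2 were higher and 2 lower. Il7r led with 4.10 ± 0.42 (adjusted p = 0.0105), and the integrin chains Itgal (-1.05 ± 0.11, adjusted p = 0.0122) and Itgb2 (-0.71 ± 0.11, adjusted p = 0.0273) went the other way.

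The DNA in front of the start sites was searched for the binding letters of the 4 families. All 8 regulators were found in the RefSeq promoter table (GRCm38.p6), in 10 windows of 250 bases before the start, since Runx1 and Runx3 have 2 starts each. On either strand, TGTGGT (Runx) occurred in 2 of the 10 windows and in 14.0% of all 32851 windows, AGGTCA (Ror) in 1 and in 14.0%, the GATA letters AGATAA, or alternatively the form TGATAA, in 0 and in 16.6%, and AGGTGTGA (T-box) in 0 and in 1.12%. The Runx letters lay in the upstream promoter of Runx3, at 2 places 134 and 126 bases before the start, and in that of Runx2, where they overlapped with no other match. Both windows are printed 5′ to 3′ along the gene because the Runx genes hold all the matches found, with the matches in capitals (ACCACA is the reverse complement of the Runx letters). Which start the cells used was not measured, and a match of letters is not a bound site.
Runx3, chr4:135120395-135120644, plus strand: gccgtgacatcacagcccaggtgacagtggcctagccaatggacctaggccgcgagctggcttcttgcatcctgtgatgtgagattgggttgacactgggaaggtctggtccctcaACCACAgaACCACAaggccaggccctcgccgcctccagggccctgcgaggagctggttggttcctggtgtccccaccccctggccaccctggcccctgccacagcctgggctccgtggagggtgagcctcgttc
Runx2, chr17:44814628-44814877, minus strand: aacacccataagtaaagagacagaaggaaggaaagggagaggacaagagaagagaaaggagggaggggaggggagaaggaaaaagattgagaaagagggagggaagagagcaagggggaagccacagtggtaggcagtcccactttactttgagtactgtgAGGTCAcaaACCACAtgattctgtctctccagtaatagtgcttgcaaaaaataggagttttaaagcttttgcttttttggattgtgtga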

How the data were processed

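RNA of sorted cells was amplified, labeled and hybridized to 8 one-color Agilent arrays, 1 for each of 4 cell types at each of 2 days. The authors deposited, per the file headers, processed signal intensity from Agilent Feature Extraction 10.7.3.1, and a table of intensity values on a linear scale, normalized as below, which correlated with the values computed here and was used as an alternative only. Following the methods of the study, spots were left out when marked by the scanner software, farther than 1.42 interquartile ranges among the 4 spots of a probe, or with a pixel coefficient of variation above 0.5 (86.45 to 89.18% of 157716 spots were retained). Probes were averaged geometrically, quantile normalized, scaled to a 75th percentile of 1500, set to a floor of 20 and taken to log2. Scaling can hide a change shared by most genes. Before normalization the 75th percentile was 482.95 to 878.30, and 46.30 to 50.39% of probes were well above background; the number of arrays limits the precision.

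A gene was the probe with the highest mean. Of 29924 names, 15747 were tested in limma 3.58.1 (R 4.3.3) with cell type and day as terms, 3 residual degrees of freedom and Benjamini-Hochberg adjustment. The pools of a day share the day, which the labels give, and all or some of them a slide. Whether the cell types of a day came from the same mice is not in the labels. With the shared change between the days taken out by the day term, the p-values measure how that change differed among the cell types. The split of d25 over slides is within that spread. The fit was tested on simulated data. The regulators, lists and markers were chosen with earlier results of these data known, and the fit of 20220 single probes was added after seeing the data. Named genes were at most the 4 largest called differences of a list in comparisons where a regulator of that lineage was called, and the 3 nearest profiles for regulators whose cell type means spanned at least 1 in log2; other genes were named after their values were seen. Bounds, "at least", take the lowest signal well above background for a dim array. Listed genes that passed the filter only through the cell type where they were high are in the counts, and their calls support nothing. The alternatives were scaling, background correction, spots, floor, filter, probe choice, day, slide, variance prior, a fold threshold and each array left out. RefSeq promoters (GRCm38.p6) were not combined with probe positions (NCBI37). Cells from Peyer's patches were not analysed here. The single values of some listed genes are not reported here.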

Additional observations from a re-analysis of the deposited data

Results flagged for a closer look

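The change of Runx3 from Treg to TFR cells and that from naïve CD4 T to TFH cells differed by 3.35 in log2 (SE 0.43, limma adjusted p = 0.0172), which drew attention because the same contrast was tested in Foxp3+ and Foxp3- cells and the test of the difference passed. The change was -2.93 in Foxp3- cells and 0.42 in Foxp3+ cells, and the other probe of Runx3 gave 1.78 (adjusted p = 0.0225). Over the alternatives the adjusted p ranged from 0.00329 to 0.107.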

How the results depend on the processing

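Of 28 called differences of the regulators, 13 kept their call under every alternative that gave a value (up to 20), 15 lost it under at least 1, and 0 changed sign. Of 36 that were not called, 12 passed under some alternative and 16 changed sign under some. Without a filter on dim genes the regulators called numbered 3 for TFH against naïve, 2 for TFR against Treg, 1 for Treg against naïve, 2 for TFR against TFH, 4 for TFR against naïve and 0 for the difference of both changes, where more genes were tested. With slide as a block they numbered 1 for Treg against naïve and 2 for TFR against TFH. For the difference of both changes they numbered 2 with 75th percentile scaling alone, 4 with normexp, 2 without spot exclusion, 2 with genes well above background on all arrays and 3 with a trended prior. The fit has the day as replicate block, and without that block the number was 2 and no other count of regulators moved by over 1.5 times. Leaving out 1 array gave 3 to 6, 2 to 6, 1 to 5, 1 to 6, 4 to 7 and 0 to 1 in the order above.

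Signs turned for Runx1 in TFH against naïve (0.18 with the mean of all probes), Runx3 in TFR against naïve (0.012 without spot exclusion), and, with slide as a block, Eomes (-0.27) and Runx1 (-0.087) in TFH against Treg. For the difference of both changes they turned for Gata1 (-0.77 with normexp) and Runx2 (-0.042 with normexp, -0.35 in the table of the authors, -0.71 without a floor). With 1 array left out the range spanned 0 for Eomes (-2.32 to 0.41) and Runx1 (-0.36 to 0.12) in TFH against naïve, Tbx21 (-0.23 to 0.30) and Runx1 (-0.58 to 0.022) in Treg against naïve, and Runx3 (-0.27 to 0.19) in TFR against naïve. It did so in TFH against Treg for Eomes (-0.75 to 1.99), Gata3 (-0.25 to 0.25), Runx1 (-0.14 to 0.46) and Runx2 (-0.25 to 0.65), and in the difference of both changes for Eomes (-2.04 to 0.70), Gata1 (-0.10 to 0.29), Gata3 (-0.23 to 0.27) and Runx2 (-0.39 to 0.52). Between the days it did so for Tbx21 (-0.17 to 0.093), Eomes (-0.53 to 0.55) and Runx1 (-0.17 to 0.10). Except for the filter, the cause was not tested. The genes called between the days were 11 in all and 0 to 1141 over the alternatives.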
